A study of Homo sapiens with 12 samples.

Results

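Ishikawa cells, a human endometrial adenocarcinoma line, labelled shMOF were compared with control Ishikawa cells in the condition called ERα(+). The comparison was chosen by the titles of the arrays, and it covers 6 of the 12 expression arrays of the series, 3 for each group. All groups are the same cell line: the control and shMOF genotypes each occur in the conditions ERα(-) and ERα(+), and shMOF names a short hairpin RNA directed at MOF. What separates the conditions is not given in the sources used here, and the sequence of the hairpin, whether a group is 1 clone and the origin of the replicates were not stated in those sources. Spread between arrays, perhaps only technical, is thus all that the p-values weigh.

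MOF, encoded by KAT8, is an acetyltransferase that acetylates histone H4 and works within the MSL and NSL complexes, and ERα, encoded by ESR1, is the nuclear receptor for oestrogen that governs growth of the endometrial epithelium. Epithelial cells also carry an innate antiviral system, in which RNA sensors in the cytosol lead to secreted interferons, and interferons act through JAK kinases and STAT and IRF factors. These factors bind the interferon-stimulated response element (ISRE) in promoters and switch on a battery of antiviral effector genes.

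Values are log2 RMA signals, in which the probes of a set are combined after background subtraction and equalising of the arrays, so that a log2 difference of 1 is a 2-fold difference. Levels of different probe sets cannot be set against each other. Group means were compared by limma over 14884 named genes, and differences below are shMOF minus control, with the standard error (SE). No gene had a Benjamini-Hochberg adjusted limma p below 0.05 (0%), and the smallest was 0.0988. At an unadjusted p below 0.05 there were 2787 genes (18.7%), of which 1520 were higher (10.2%) and 1267 lower (8.51%) in the arrays labelled shMOF, and 744.2 would be expected by chance. The median difference over all genes was -0.04. Array quality weights, an alternative that counts arrays near their group mean for more, called 1629 genes (10.9%) and put 2292 higher (15.4%) and 2470 lower (16.6%) of 4762 (32%) at an unadjusted p below 0.05, and leaving out ERα(-) shMOF array 2, which enters only through the spread, called 30. Genes described below as higher or lower had an unadjusted p below 0.05 and did not pass after adjustment for the number of genes.

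The targeted gene did not follow the label. KAT8 read 6.80, 6.60 and 6.81 in control arrays 1, 2 and 3, and 6.66, 6.66 and 7.02 in shMOF arrays 1, 2 and 3. The groups overlapped, and shMOF array 3 was the highest of the 6. The difference was 0.04 ± 0.13 (SE, limma adjusted p = 0.882), with a 95% interval from -0.23 to 0.31. It turned to -0.03 without control array 2 and to -0.08 without shMOF array 3. Whether the probe set covers the part of the transcript that the hairpin targets is not given, and "shMOF" below names the label of an array.

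ESR1, the gene of the condition, read 4.40, 4.65 and 4.32 in the control arrays and 4.28, 4.27 and 4.27 in those labelled shMOF. All 3 arrays labelled shMOF lay below all 3 controls, by 0.04 at the nearest, as in 14.1% of all genes, and 12.2% lay apart in the other direction (26.2% in all). The difference was -0.19 ± 0.12 (SE, limma adjusted p = 0.395), at the 27.1st percentile of gene levels, where RMA can compress differences. ESR1 signal did not follow the ERα label. Its mean was 4.46 in control and 4.27 in shMOF arrays of ERα(+), and 4.28 and 4.42 in those of ERα(-). The labels ERα(+) and ERα(-) are thus used here only as names of conditions. Of 12 measured epithelial and endometrial carcinoma markers, 11 had differences below 0, with a median of -0.29, 5 had groups apart downward, and KRT18 and KRT7 were lower at an unadjusted p below 0.05. Among the others EPCAM read from 11.45 to 11.60 and PAX8, a Mullerian transcription factor, from 10.56 to 10.99 over the 6 arrays. Among markers of other cell types, the stromal proteoglycan DCN had group means of 2.05 and 2.04 in control and shMOF arrays, and PECAM1 of endothelium 4.34 and 4.33. Both were named after their values were seen. Differences in the stromal list were below 0 in 6 markers and above in 2, down to -0.43. In the endothelial list they were below 0 in 6 and above in 3, down to -0.32. Of 8 stromal and 9 endothelial markers 0 had an unadjusted p below 0.05, against 18.7% of all genes. Of 9 immune markers 2 were lower (22.2%, against 8.51% of all genes), GNLY and CD68. With control array 3 and shMOF array 2 left out, 0 of the 9 passed, and only 1 of the 9 was at or above the median gene level. The mean signal of the immune list ran from 4.84 to 5.04 over the controls and from 4.63 to 4.72 over the arrays labelled shMOF, and its part in the results was not tested.

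Control array 3 and shMOF array 2 stood apart from the other 4. They were the least alike pair of the 6 (r = 0.965 across genes, which are not independent replicates), and they held the ends of the first principal component of the 12 arrays, which carried 36.8% of the variance. Without control array 3 the count at unadjusted p below 0.05 was 1182 (7.94%), without shMOF array 2 it was 1048 (7.04%), and without both, a setting chosen after the data were seen, it was 635 (4.27%), with 295 higher (1.98%), 340 lower (2.28%) and 1 at an adjusted p below 0.05 (0.00672%). Counts "without both arrays" below leave out this pair.

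Interferon-induced antiviral effectors were higher in the arrays labelled shMOF, with and without these arrays. Of 32 measured members, 15 were higher and 0 lower at an unadjusted p below 0.05, or 46.9% against 10.2% of all genes. Their median difference was 0.28, against -0.04 over all genes. Without both arrays 16 were higher, or 50% against 1.98% of all genes, and 13 of the 15 were among them. The list's median over arrays labelled shMOF, taken against the control mean, was 0.24, 0.40 and 0.36 in arrays 1, 2 and 3. The mean signal of the list was 5.29, 5.32 and 5.44 in the ERα(+) controls and 5.59, 5.88 and 5.85 in the ERα(+) arrays labelled shMOF. In ERα(-) it was 5.67, 5.62 and 5.60 in the controls and 5.45, 5.63 and 5.37 in the arrays labelled shMOF. The ERα(+) controls thus also lay below the ERα(-) controls, and which group departs from the others was not tested. The largest differences among the effectors were those of IFI44L, SAMD9, IFI44 and IFIT1, at 1.66, 1.62, 1.11 and 1.07.

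Several of these genes carry an ISRE core close to a RefSeq start, and the stretches below show it. They are taken from RefSeq promoter windows of build GRCh38.p14, which run from 250 bases before to 50 bases after a start, and each is written 5′ to 3′ on the strand of its gene. Capitals mark the core, searched as GAAA, any 2 bases and GAAA again on both strands, so that it can also read TTTC, any 2 bases and TTTC. IFI44L (chr1:78620350-78620409, plus strand), IFIT1 (chr10:89392495-89392554, plus strand), IFIT3 (chr10:89332453-89332512, plus strand), SAMD9 (chr7:93118081-93118140, minus strand), DDX60 (chr4:168318771-168318830, minus strand), the sensor IFIH1 (chr2:162318685-162318730, minus strand) and the chemokine CXCL10 (chr4:76023684-76023743, minus strand) are shown because the results turn on them.
IFI44L: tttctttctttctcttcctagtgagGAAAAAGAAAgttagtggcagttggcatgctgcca
IFIT1: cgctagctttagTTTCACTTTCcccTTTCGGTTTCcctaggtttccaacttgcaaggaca
IFIT3: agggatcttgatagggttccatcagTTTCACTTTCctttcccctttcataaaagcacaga
SAMD9: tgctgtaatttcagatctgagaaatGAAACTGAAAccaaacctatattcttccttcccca
DDX60: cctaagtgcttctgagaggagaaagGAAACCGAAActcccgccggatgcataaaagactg
IFIH1: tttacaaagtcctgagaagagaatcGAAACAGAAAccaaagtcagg
CXCL10: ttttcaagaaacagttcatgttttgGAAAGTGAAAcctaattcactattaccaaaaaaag
The core, or in IFIT1 the one nearer the start of the 2 shown, begins 73 bases before the start in IFI44L, 103 in IFIT1, 51 in IFIT3, 136 in SAMD9, 53 in DDX60, 21 in IFIH1 and 221 in CXCL10. Further cores lie outside the stretches shown: before the start, the windows of IFI44L, IFIT3 and DDX60 held 2 each and that of IFIH1 held 3. For a gene with several RefSeq starts, the start with the nearest core upstream was taken, so these distances partly follow from that choice. The IFIT3 start used lies within the gene, whose span begins at chr10:89327997.

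Among the antiviral effectors with a promoter window, 20 of 27 (74.07%) held the core, against 418 of 10749 tested genes with a window (3.89%). The core did not separate the effectors that were higher from the rest: 10 of the 13 with a window that were higher held it, and so did 10 of the 14 that did not pass. Over all genes with the core, 14.83% were higher at an unadjusted p below 0.05, against 11.18% of genes without it, and the median difference of genes with the core was -0.00241. A match is only these letters in the window.

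IFI44L, an interferon-induced gene of the antiviral response, read 4.26, 3.97 and 4.29 in control arrays 1, 2 and 3 and 5.35, 6.17 and 6.0 in arrays 1, 2 and 3 labelled shMOF. All 3 arrays labelled shMOF lay more than 1 log2 unit above every control, and array 1 was the lowest of them. The difference was 1.66 ± 0.26 (SE, limma adjusted p = 0.155), or 3.17-fold, and it was 1.56 without both arrays. SAMD9, a factor that restricts poxviruses, read 4.40, 4.49 and 4.15 in the controls and 5.25, 6.57 and 6.09 in the arrays labelled shMOF. It showed the same order among the latter, and the groups did not overlap (1.62 ± 0.32, SE, limma adjusted p = 0.155).

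The IFIT proteins bind foreign RNA and block its translation. IFIT1 read 5.48, 5.67 and 5.54 in the controls and 6.18, 6.81 and 6.91 in the arrays labelled shMOF. The controls lay within 0.2 of each other and below the lowest array labelled shMOF (1.07 ± 0.19, SE, limma adjusted p = 0.155). IFIT3, which binds IFIT1, read 4.33, 4.43 and 4.58 against 5.17, 5.37 and 5.56, again without overlap (0.92 ± 0.16). IFIT2 was at 0.89 ± 0.26 and IFIT5 at 0.57 ± 0.14, so that all 4 measured IFIT genes were higher at an unadjusted p below 0.05. The IFIT genes lie in a cluster and are similar in sequence, and probe sets of such paralogs can share signal.

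Ubiquitin ligases and helicases of the response were higher too. HERC5, the ligase that attaches ISG15 to proteins, read 6.92, 6.84 and 6.51 in the controls and 7.38, 7.78 and 7.70 in the arrays labelled shMOF. All 3 of the latter were above all controls (0.86 ± 0.18). HERC6, its relative, read 6.25, 6.38 and 6.19 against 6.78, 6.77 and 6.87, with both groups tight (0.53 ± 0.13). DDX60, a helicase, read 4.79, 5.22 and 5.02 against 5.56, 6.43 and 6.08. RSAD2, which encodes viperin, read 4.72, 4.98 and 5.16 against 5.37, 6.24 and 6.0, and IFI44 read 4.51, 4.29 and 4.36 against 5.16, 6.01 and 5.30. None of these 3 overlapped, and their differences were 1.02 ± 0.26, 0.92 ± 0.21 and 1.11 ± 0.23. SP110, OASL, PLSCR1 and PNPT1 had differences of 0.52, 0.54, 0.29 and 0.41. The groups of OASL and PNPT1 overlapped, in OASL because control array 3, at 6.55, exceeded shMOF arrays 1 and 2, at 6.52 and 6.51, and those of the other 13 did not.

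The other 17 effectors did not pass. ISG15, the ubiquitin-like protein that HERC5 attaches, read 6.63, 6.35 and 7.15 in the controls and 6.96, 7.0 and 6.94 in the arrays labelled shMOF. Its controls spanned the other group, and the difference was 0.26 ± 0.19. MX2 was at 0.04, TRIM22 at -0.06 and SAMD9L, the neighbour and paralog of SAMD9, at -0.10. IFITM2, of the membrane proteins that block viral entry, was at -0.28 ± 0.17, while IFITM1 was at 0.24 ± 0.17 and IFITM3 at -0.06 ± 0.14. GBP3, an interferon-induced GTPase, read 5.70, 5.72 and 5.60 in the controls and 5.39, 5.44 and 5.46 in the arrays labelled shMOF, and was the only effector whose groups lay apart in the other direction (-0.24 ± 0.16). In RNA from whole cultures, a change in a part of the cells and a change in RNA per cell cannot be told apart.

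**Figure D1:**
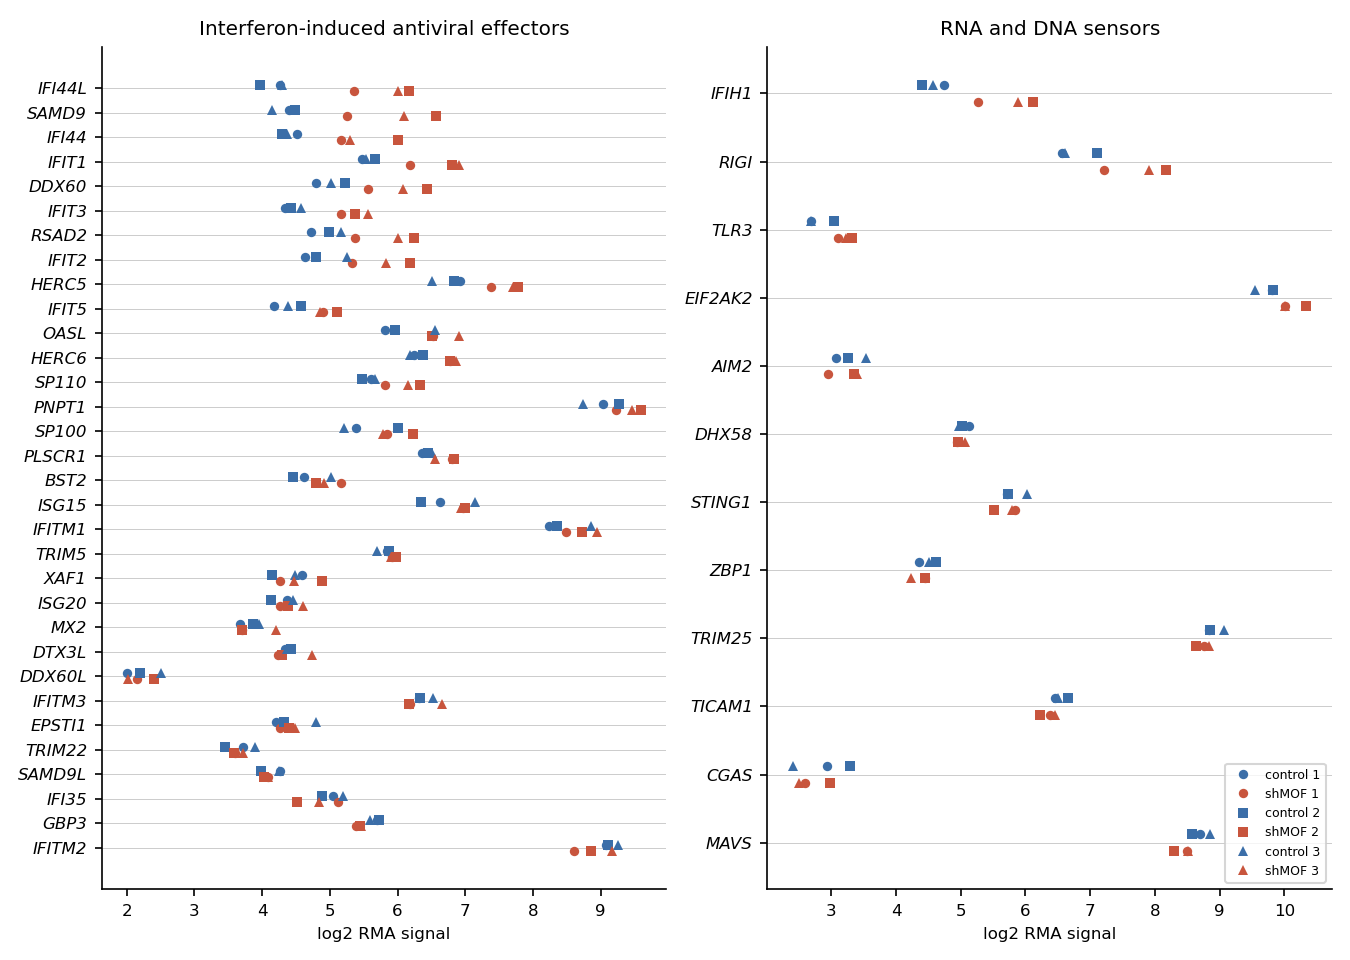
Log2 RMA signal of each measured antiviral effector (left, 32 genes) and RNA or DNA sensor (right, 12 genes) on each of the 6 ERα(+) arrays, with control arrays in blue and arrays labelled shMOF in red, and the marker shape giving the replicate number. Genes are ordered by difference: IFI44L at 1.66 and SAMD9 at 1.62 are at the top on the left, IFIH1 at 1.19 on the right, and the lower rows overlap or lean the other way.

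Some sensors of RNA were higher as well. Of 12 measured sensors and adaptors, 4 were higher and 0 lower at an unadjusted p below 0.05, or 33.3% higher against 10.2% of all genes, and the median difference was -0.08. IFIH1, which encodes MDA5, a sensor of long double-stranded RNA, read 4.74, 4.40 and 4.57 in the controls and 5.27, 6.12 and 5.89 in the arrays labelled shMOF. RIGI, the sensor of RNA with triphosphate ends, read 6.56, 7.11 and 6.61 against 7.21, 8.17 and 7.91. In both genes shMOF array 1 was the lowest of its group yet above every control, and the differences were 1.19 ± 0.24 and 1.01 ± 0.23. TLR3, an endosomal sensor of double-stranded RNA, was at 0.42 ± 0.14. EIF2AK2, the kinase PKR that halts translation when bound to double-stranded RNA, read 9.81, 9.82 and 9.55 against 10.01, 10.34 and 10.01, without overlap (0.39 ± 0.14).

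The sensor and adaptor genes of the DNA pathway did not pass: CGAS, the DNA sensor, was at -0.19 ± 0.21 and STING1, its adaptor, at -0.10 ± 0.13. MAVS, the adaptor of the RNA sensors, was at -0.27 ± 0.14, and DHX58, a regulator of the RNA sensors IFIH1 and RIGI, at -0.06 ± 0.15. Without both arrays 2 sensors were higher, IFIH1 at 1.01 and RIGI at 0.73, or 16.7% against 1.98% of all genes, and 1 was lower. TLR3 and EIF2AK2 were not among them.

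Of 14 measured interferons, receptors, JAK-STAT and IRF genes, which act between sensors and effectors, 2 were higher (14.3%) and 1 lower (7.14%) at an unadjusted p below 0.05, with a median of -0.06. Those shares were near the 10.2% and 8.51% of all genes, and without both arrays 0 passed. STAT3 read 9.46, 9.40 and 9.63 in the controls and 9.19, 9.01 and 9.26 in the arrays labelled shMOF, without overlap (-0.34 ± 0.12). JAK2 was at 0.44 ± 0.19 and IFNGR1, a chain of the receptor for type II interferon, at 0.31 ± 0.14. Of 6 measured genes of MHC class I and antigen processing, which interferon also induces, TAPBP was lower (-0.53 ± 0.20) and the others did not pass, and without both arrays 0 passed. B2M, the light chain of MHC class I, was at -0.03 ± 0.14.

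Of 23 measured chemokines, cytokines and NF-κB genes, 2 were higher and 2 lower at an unadjusted p below 0.05, or 8.7% each way, near the 10.2% and 8.51% of all genes. Their median difference was -0.28, and without both arrays the counts were again 2 and 2, against 1.98% and 2.28% of all genes. The 2 higher genes were the same, and the 2 lower ones were other genes. CXCL10, the interferon-induced attractant of T cells, read 4.11, 4.70 and 4.34 in the controls and 5.49, 5.48 and 5.23 in the arrays labelled shMOF. The groups lay 0.5 or more apart, and shMOF arrays 1 and 2 were alike (1.02 ± 0.19, SE, limma adjusted p = 0.155). CCL5 read 5.60, 5.22 and 5.76 against 5.77, 5.81 and 6.16 (0.39 ± 0.16). CX3CL1, a membrane-bound chemokine, read 6.34, 5.92 and 6.37 against 5.85, 5.03 and 5.53 and was lower in all arrays labelled shMOF (-0.74 ± 0.20), as was CXCL12 (-0.28 ± 0.12).

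Genes were ranked by difference among those at an unadjusted p below 0.01 with groups apart and a mean over the 6 arrays at or above the median gene level of 5.66, which leaves out dimmer genes with larger differences such as IFI44L, SAMD9 and IFIH1. The first 15 of the higher ones were ZNF711, ZNF117, IFIT1, VPS13C, BLTP1, RIGI, MSANTD4, WDR35, EML5, MCOLN3, ZNF138, DIAPH2, IFT80, BRWD3 and PTBP2. At an unadjusted p below 0.01 there were 602 genes (4.04%), 370 higher (2.49%) and 232 lower (1.56%). The 15 were drawn from 380 genes that met the rule, 254 higher and 126 lower, and their adjusted p lay between 0.155 and 0.223. ZNF711, a zinc finger factor encoded on the X chromosome, read 5.13, 5.96 and 5.05 in the controls and 6.08, 6.95 and 6.42 in the arrays labelled shMOF (1.11 ± 0.29). VPS13C, a lipid transfer protein at organelle contacts, read 6.51, 7.05 and 6.08 against 7.27, 7.96 and 7.50 (1.03 ± 0.27). WDR35, a part of the transport machinery of cilia, read 6.55, 6.38 and 5.97 against 7.01, 7.71 and 7.14 (0.98 ± 0.28). MCOLN3, a cation channel of lysosomes and endosomes, read 5.88, 6.09 and 5.63 against 6.66, 7.08 and 6.70 (0.95 ± 0.19). Of the 15, control array 3 was the lowest of the 6 arrays in 13 and shMOF array 2 the highest in 14. Without both arrays 5 of the 15 had an unadjusted p below 0.05: IFIT1 at 0.97, MCOLN3 and MSANTD4 at 0.70 each, RIGI at 0.73 and ZNF138 at 0.60.

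The first 15 of the lower ones under the same rule began with G0S2 and DHRS3. G0S2, an inhibitor of the lipase that breaks down stored fat, read 9.30, 9.80 and 9.62 in the controls and 8.21, 7.74 and 7.95 in the arrays labelled shMOF. The groups lay 1.09 apart, and the difference was -1.61 ± 0.44 (SE, limma adjusted p = 0.223). DHRS3, a reductase of retinal, read 7.64, 7.50 and 8.28 against 6.82, 5.88 and 6.15, with control array 3 highest and shMOF array 2 lowest (-1.52 ± 0.34). AXL, a receptor tyrosine kinase, read 6.06, 7.04 and 6.53 against 5.34, 5.44 and 5.46. Its controls were spread over about 1 unit while the arrays labelled shMOF lay within 0.12 (-1.13 ± 0.33).

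BMP4, a growth factor of the TGF-β family, read 7.22, 7.71 and 7.25 in the controls and 6.45, 6.16 and 6.35 in the arrays labelled shMOF (-1.08 ± 0.32). HBEGF, a ligand of the EGF receptor, read 6.16, 7.05 and 6.49 against 5.39, 5.95 and 5.98, the narrowest gap of the 15 at 0.18 (-0.79 ± 0.26). EPAS1, the hypoxia-inducible factor HIF-2α, read 7.46, 8.22 and 7.65 against 6.86, 6.55 and 6.86 (-1.02 ± 0.31). In all 3, control array 2 was the highest of the 6. TIMP1, an inhibitor of matrix metalloproteinases, read 8.20, 8.23 and 8.48 against 7.44, 7.0 and 7.48 (-1.0 ± 0.30), and FOSL1, a component of the AP-1 factor, 7.73, 8.02 and 7.66 against 6.86, 6.74 and 7.15 (-0.89 ± 0.24). KRT80, CST6, CDA, PRAG1, C19orf33, MKNK2 and MIR3159 completed the 15, at -1.09, -1.06, -0.93, -0.89, -0.85, -0.83 and -0.82. Without both arrays 12 of the 15 had an unadjusted p below 0.05, and CDA (-0.77), MKNK2 (-0.56) and TIMP1 (-0.76) did not.

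**Figure D2:**
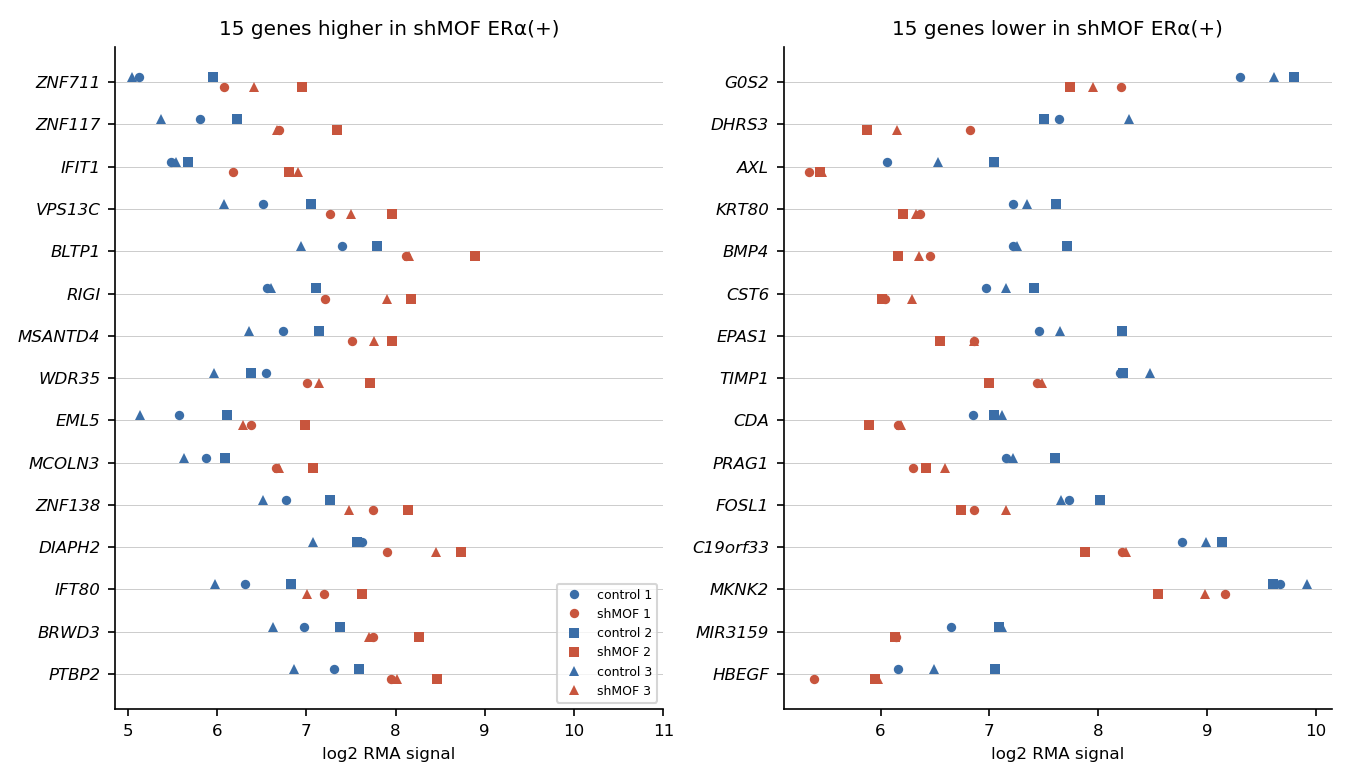
Log2 RMA signal of the 15 genes that were higher (left) and the 15 that were lower (right) under the rule for named genes, on each of the 6 ERα(+) arrays, control in blue and shMOF in red, marker shape giving the replicate number. The groups do not overlap in any row because the rule required it; on the left the red square, shMOF array 2, is the rightmost point in 14 rows and the blue triangle, control array 3, the leftmost in 13.

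A pair of microRNA genes had some of the smallest p-values of the comparison. Their mature sequences, from RefSeq, are shown with the seed (bases 2 to 8), which pairs with targets, in capitals.
hsa-miR-3159: uAGGAUUAcaagugucggccac
hsa-miR-520a-5p: cUCCAGAGggaaguacuuucu
hsa-miR-520a-3p: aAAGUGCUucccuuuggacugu
The 3 seeds differ. MIR3159 read 6.65, 7.09 and 7.12 in the controls and 6.14, 6.13 and 6.13 in the arrays labelled shMOF, so that the latter lay within 0.01 of each other and below every control (-0.82 ± 0.14, SE, limma adjusted p = 0.155). MIR520A, singled out after its values were seen, read 3.39, 3.35 and 2.68 against 1.86, 1.98 and 1.81 (-1.26 ± 0.18, SE), and held the smallest adjusted limma p, 0.0988. Without control array 3 its adjusted p was 0.00292, and without both arrays it was 0.0135, the only gene below 0.05 in either. Over 21 alternatives that gave it a value its adjusted p ran from 0.000564 to 0.406. Its signal was at the 5.38th percentile of gene levels, and it lies in a cluster of near-identical microRNA genes on chromosome 19, so its reading is uncertain. The array measured RNA that hybridised to the gene's probe set, not the mature microRNA.

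**Figure D3:**
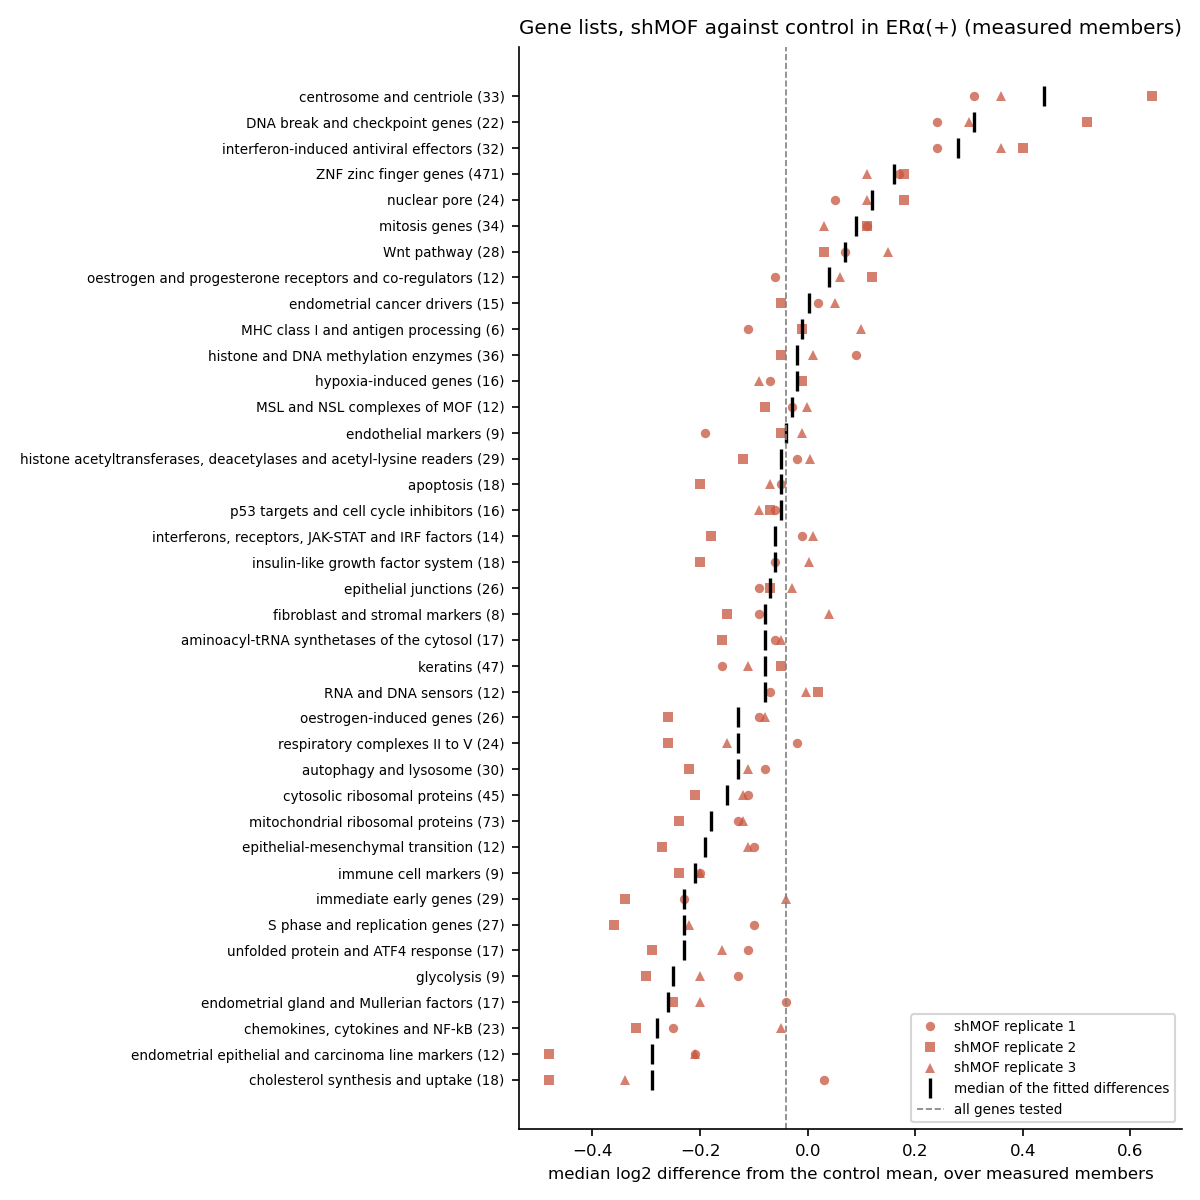
Median log2 difference of each gene list with at least 3 measured members (number in brackets): the black bar is the median of the fitted differences, the points the median of each array labelled shMOF against the control mean, and the dashed line all genes at -0.04. Centrosome genes (0.44), DNA break genes (0.31) and antiviral effectors (0.28) are at the top; cholesterol genes and epithelial markers, both at -0.29, are at the bottom, and shMOF array 2 (squares) is often the farthest out.

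Genes of the centrosome were higher as a group in the 6 arrays. Of 33 measured members, 19 were higher (57.6%, against 10.2% of all genes) and 0 lower at an unadjusted p below 0.05. Their median was 0.44. CEP170, a protein of the mother centriole, read 5.94, 6.46 and 5.76 in the controls and 6.82, 7.13 and 6.64 in the arrays labelled shMOF (0.81 ± 0.25). SASS6, which builds the cartwheel of a new centriole, read 7.80, 8.14 and 7.17 against 8.19, 9.07 and 8.47 (0.87 ± 0.29). Control array 3 was the lowest and shMOF array 2 the highest of the 6 in both genes. Without both arrays 0 of the 33 were higher, against 1.98% of all genes, and the median was 0.16. With either left out alone, 3 were higher (9.09%), against 4.01% of all genes without control array 3 and 3.68% without shMOF array 2.

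DNA break and checkpoint genes behaved likewise, with 12 of 22 higher (54.5%, against 10.2% of all genes), 0 lower and a median of 0.31. SMC5 and SMC6, which form a complex that acts in recombination repair, were at 0.83 ± 0.29 and 0.82 ± 0.27, and ATRX, a chromatin remodeller, read 7.33, 7.74 and 6.90 in the controls and 8.03, 8.62 and 8.04 in the arrays labelled shMOF (0.91 ± 0.30). RECQL, a DNA helicase, was at 0.70 ± 0.25. Without both arrays 1 of the 22 was higher (4.55%, against 1.98% of all genes). The ZNF zinc finger genes, a family of DNA-binding repressors, had 118 of 471 higher (25.1%) and 19 lower (4.03%), with a median of 0.16. Of all genes, 10.2% were higher and 8.51% lower. With both arrays left out, 16 were higher (3.4%) and 2 lower (0.425%), against 1.98% and 2.28% of all genes. Of the 118 higher, 13 were among these, and of the 19 lower, 0. ZNF138 read 6.77, 7.27 and 6.52 against 7.75, 8.14 and 7.48 (0.94 ± 0.22), and ZNF69 4.95, 5.42 and 5.11 against 6.01, 6.13 and 5.88 (0.85 ± 0.21). ZNF genes are alike in sequence, so their probe sets can share signal.

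Cell cycle genes split between S phase and mitosis. Of 27 S phase and replication genes, 0 were higher and 10 lower (37%, against 8.51% of all genes), with a median of -0.23. MCM2, of the replicative helicase, read 8.54, 8.34 and 8.73 in the controls and 8.34, 7.72 and 8.17 in the arrays labelled shMOF (-0.46 ± 0.17), and E2F1, the transcription factor of S phase entry, 7.63, 7.66 and 7.91 against 7.51, 7.18 and 7.49 (-0.34 ± 0.13). Of 34 mitosis genes, 8 were higher (23.5%) and 2 lower (5.88%), against 10.2% and 8.51% of all genes, with a median of 0.09. The higher ones included ECT2, which drives cytokinesis, at 0.68 ± 0.24 and the motor KIF11 at 0.48 ± 0.18. The 2 lower were the kinases PLK1 at -0.39 and AURKB at -0.45, named here after their values were seen. Without both arrays 0 of either list had an unadjusted p below 0.05.

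Genes for ribosomal proteins were mostly below 0. Of 45 cytosolic ribosomal protein genes, 41 were below 0, where 43.8% of all genes were above 0, with a median of -0.15. At an unadjusted p below 0.05, 4 were lower (8.89%), near the 8.51% of all genes, and 0 higher. The groups lay apart downward in 17 of the 45, against 14.1% of all genes. RPL28 read 6.41, 6.39 and 6.60 in the controls and 6.22, 6.01 and 6.09 in the arrays labelled shMOF (-0.36 ± 0.12), and RPS16 8.16, 8.03 and 8.28 against 7.93, 7.55 and 7.82 (-0.39 ± 0.15). Of 73 mitochondrial ribosomal protein genes, 9 were lower (12.3%) and 3 higher (4.11%), with a median of -0.18. Of all genes, 8.51% were lower and 10.2% higher. MRPL42 stood against the rest at 0.45 ± 0.14. Without both arrays 1 cytosolic (2.22%) and 2 mitochondrial genes (2.74%) were lower, near the 2.28% of all genes. The cytosolic gene was not among the 4 above.

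The number of higher and lower genes followed the span of the gene on the genome, which the choice of arrays did not use. Genes higher at an unadjusted p below 0.05 had a median span of 57.79 kb and lower ones of 12.08 kb, against 20.71 kb for all genes. When genes were split by span into 5 bins of equal size, 105 were higher and 319 lower in the bin of shortest genes, and 621 were higher and 118 lower in that of the longest. Without both arrays the counts were 60 and 123 in the shortest bin and 86 and 57 in the longest. Centrosome genes had a median span of 81.99 kb, DNA break genes 81.71 kb and cytosolic ribosomal protein genes 4.80 kb. Antiviral effectors had 20.53 kb, close to that of all genes. Whether span has a part in the differences of the long and short gene groups was not tested.

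**Figure D4:**
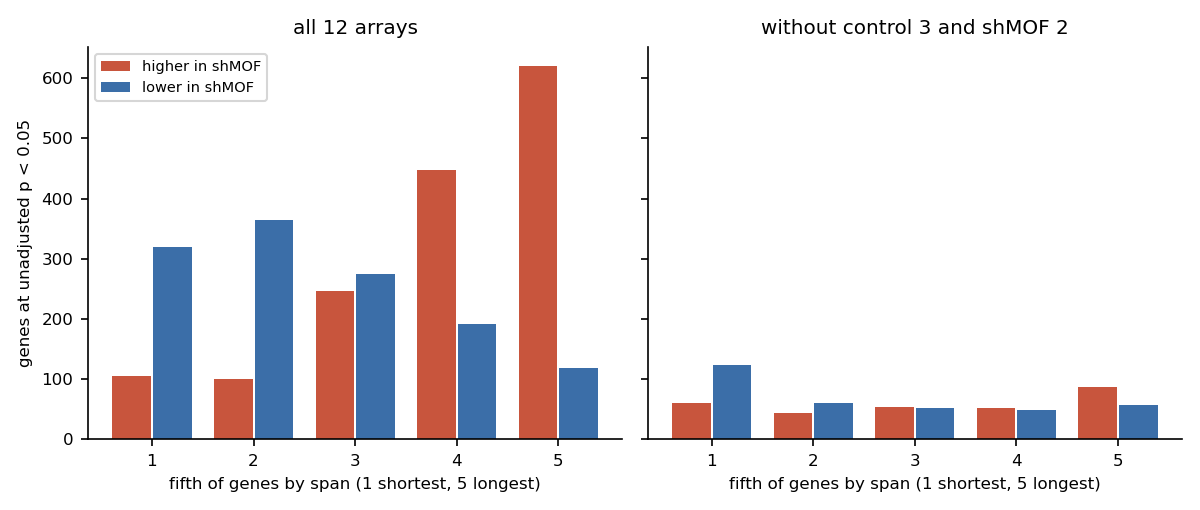
Number of genes at an unadjusted limma p below 0.05 that were higher (red) or lower (blue) in the arrays labelled shMOF, in 5 equal bins of all tested genes by genomic span from shortest to longest; the left panel uses all 12 arrays and the right panel leaves out control array 3 and shMOF array 2. On the left the higher genes go from 105 to 621 and the lower from 319 to 118; on the right the tallest bar is 123.

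Immediate early genes are those that cells switch on within minutes of a growth signal. Of 29 measured, 6 were lower (20.7%, against 8.51% of all genes) and 0 higher, with a median of -0.23. IER5 read 6.45, 6.44 and 6.82 in the controls and 6.13, 5.69 and 6.17 in the arrays labelled shMOF (-0.58 ± 0.17). SRF, the factor that drives many of the others, read 9.02, 8.96 and 9.06 against 8.60, 8.46 and 8.75 (-0.41 ± 0.12). Neither overlapped, and the controls of SRF lay within 0.1 of each other. Without both arrays 2 of the 29 were lower (6.9%, against 2.28% of all genes), and 1 of them was among the 6.

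Of 47 keratin genes, 6 were lower (12.8%, against 8.51% of all genes) and 0 higher, with a median of -0.08, and without both arrays 1 was lower. KRT80 read 7.22, 7.61 and 7.35 in the controls and 6.36, 6.21 and 6.33 in the arrays labelled shMOF (-1.09 ± 0.36), and KRT18, a keratin of simple epithelia, 10.10, 10.19 and 10.30 against 9.75, 9.60 and 9.95 (-0.43 ± 0.15). Of the 12 epithelial and carcinoma markers described above 2 were lower (16.7%). With both arrays left out 1 was lower, and it was neither of these 2. Of 26 junction genes 5 were lower (19.2%), among them JUP, the desmosome protein plakoglobin (-0.55 ± 0.16), and 1 was higher, OCLN of tight junctions, which read 7.94, 7.87 and 7.56 against 8.07, 8.50 and 8.19 (0.47 ± 0.15). Without both arrays 0 of the 26 passed. In the list of epithelial-mesenchymal transition, AXL and the matrix protein THBS1 (-0.70 ± 0.26) were lower of 12 measured (16.7%), and without both arrays 2 were lower. CD44 (-0.78 ± 0.42) and FN1 (-0.85 ± 0.48) had differences as large and did not pass.

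Of 28 Wnt pathway genes, 7 were higher (25%, against 10.2% of all genes) and 2 lower, with a median of 0.07, and without both arrays 1 was higher and 0 lower. ROR2, a Wnt receptor, read 5.49, 5.44 and 5.46 in the controls and 6.47, 6.08 and 5.96 in the arrays labelled shMOF. Its controls lay within 0.05, and all arrays labelled shMOF were above them (0.71 ± 0.13, SE, limma adjusted p = 0.155); without both arrays it was at 0.75. LGR5, a receptor that amplifies Wnt signals and marks epithelial stem cells, read 6.20, 5.49 and 5.73 against 7.68, 7.39 and 6.82 (1.49 ± 0.51), without overlap and with shMOF array 1 highest. APC, a brake on the pathway, was at 0.72 ± 0.25 and the co-receptor LRP5 at -0.42 ± 0.14. FOXA2, required for uterine gland formation, was at -0.39 ± 0.16. IGF2BP1, an oncofetal RNA-binding protein, read 5.62, 5.52 and 5.23 against 5.36, 7.71 and 7.77, so that shMOF array 1 lay among the controls and the other 2 more than 2 units above (1.49 ± 0.57).

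Of the 12 MSL and NSL subunits, 1 was higher (8.33%) and 2 lower (16.7%), where 10.2% and 8.51% of all genes were, and without both arrays 0 passed. OGT, the glycosyltransferase of the NSL complex, read 9.40, 9.74 and 9.51 in the controls and 9.88, 9.97 and 9.92 in the arrays labelled shMOF (0.37 ± 0.12), while MCRS1 (-0.40 ± 0.16) and HCFC1 (-0.31 ± 0.14) were lower. Of 12 oestrogen and progesterone receptors and co-regulators, the co-activators MED1 (0.35 ± 0.13), NCOA2 (0.48 ± 0.19) and NCOA1 (0.40 ± 0.18) were higher (25%) and 0 lower, with a median of 0.04, and without both arrays 0 were higher and 1 lower. Among 26 oestrogen-induced genes, IGFBP4 (-0.37 ± 0.13), TFF1 (-0.39 ± 0.17) and CXCL12 were lower and BCL2 (0.31 ± 0.11) higher. The shares were 11.5% lower and 3.85% higher, with a median of -0.13. With both arrays left out 1 was lower, and it was not among these 3. Other chromatin enzymes included SUV39H1, a methyltransferase of heterochromatin, which read 6.89, 6.91 and 7.02 against 6.43, 6.19 and 6.44 (-0.58 ± 0.14), and the DNA demethylases TET2 (0.62 ± 0.21) and TET1 (0.55 ± 0.19). Of 29 acetyltransferases, deacetylases and readers 4 were higher (13.8%) and 3 lower (10.3%), with SIRT6 at -0.47 ± 0.15 and SIRT1 at 0.44 ± 0.18, and without both arrays 0 passed.

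The same contrast in the ERα(-) arrays, which share no array with it, had the opposite sign in the 30 genes chosen by the ranking above. Not every gene named did so: ROR2 was at 0.22 there. In ERα(-), 711 genes (4.78%) had an unadjusted limma p below 0.05 and 0 an adjusted p below 0.05. Of the 30 chosen genes, 0 had the same sign in ERα(-): IFIT1 was at -0.23, RIGI at -0.51, G0S2 at 0.91 and BMP4 at 0.77. Some were near 0 there, such as KRT80 at 0.07 ± 0.36 and MIR3159 at 0.04 ± 0.14. Opposite signs were not particular to the 30. Among the 602 genes at an unadjusted limma p below 0.01 in ERα(+), only 100 had the same sign in ERα(-). The antiviral effectors had a median of -0.15 there. Across all genes the 2 sets of differences correlated at r = -0.387 (Spearman's rho = -0.37), as a description across genes. The sign counts and this correlation are given for all arrays, and not without control array 3 and shMOF array 2. That pair held the ends of the first principal component, at 32.94 and -29.81. The ERα(-) controls lay on it at -4.22, -3.58 and -11.90, and the ERα(-) arrays labelled shMOF at 22.28, -18.04 and 9.68. The part of that component in the opposite signs was not tested. In the test of the difference between conditions, 2685 genes had an unadjusted p below 0.05 (18%) and 0 an adjusted p below 0.05 (0%), the smallest being 0.0697. For the 30 genes the adjusted p of that difference lay between 0.169 and 0.262.

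**Figure D5:**
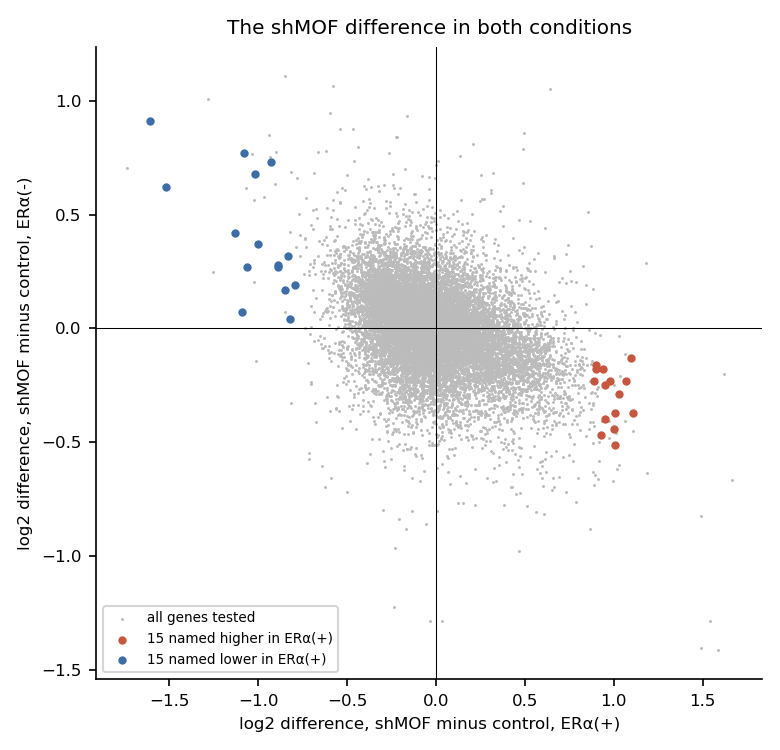
Log2 difference, shMOF minus control, in ERα(+) (horizontal) against that in ERα(-) (vertical) for all 14884 genes (grey), with the 15 genes higher (red) and 15 lower (blue) in ERα(+). All 15 red points lie below 0 and all 15 blue points above 0 on the vertical axis; the cloud has r = -0.387.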

How the data were processed

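The authors deposited log2 values that, per the submitters' processing notes, came from RMA in Affymetrix Expression Console 1.4.1. Dim signals can be compressed by it. Genome build and batches: not given in the sources used here. Of 53617 probe sets, 16098 had 1 gene symbol in the platform annotation, 0 had several and 37519 were unnamed here and not used. The probe set with the highest mean stood for each of 779 genes with several, which left 14884 genes, all matched to RefSeq GRCh38.p14 by gene ID, without a filter. Array medians lay between 4.53 and 4.59.

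A mean per group was fitted over all 12 arrays with limma 3.58.1 in R 4.3.3 (two-sided, Benjamini-Hochberg adjustment over all genes, 8 residual and 5.60 prior degrees of freedom), and the 95% interval reached a median of 0.33 to either side. The number of arrays, 3 a group, limits the precision, and an exact test cannot go below 0.1. On simulated data over 14884 genes the fit of this comparison recovered 40% of 50 genes changed 1.5-fold and 100% of 50 changed 2-fold, with 7 false calls. Simulated noise was independent between genes and arrays. In the data the first component of the 12 arrays carried 36.8% of the variance, so these recovery rates do not carry over to it.

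Named genes were KAT8, ESR1, up to 15 per direction with the largest difference at an unadjusted p below 0.01, groups apart and a mean at or above the median level of 5.66, and up to 4 members per list with the smallest p. Other genes named are members of the sensor and effector lists, or were added after their values were seen: MIR520A, PLK1, AURKB and the markers DCN, PECAM1, EPCAM and PAX8. Members and lists were chosen with earlier results of these data known. Of 43 lists, 39 had at least 3 measured members; the lists get counts and no test. Alternatives covered probe set choice, dim genes, normalization, trend, array weights, the 6 arrays alone, a replicate block and each array left out.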

Additional observations from a re-analysis of the deposited data

How the results depend on the processing

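Leaving out 1 array at a time gave from 0 to 30 genes at an adjusted limma p below 0.05, from 1048 to 3473 at an unadjusted p below 0.05, from 547 to 1882 higher, from 501 to 1591 lower and from 3905 to 7010 with groups apart. The 30 were found without ERα(-) shMOF array 2, 1 without control array 3, and the lowest counts without shMOF array 2. Array quality weights gave 1629 at an adjusted p below 0.05 and 4762 at an unadjusted one, 2292 higher and 2470 lower. Leaving out both control array 3 and shMOF array 2, chosen after seeing the data, gave 1, 635, 295 and 340. The cause was not tested. KAT8 ran from -0.08 to 0.10 with 1 array left out. The other alternatives gave 0 adjusted calls. Of 147 named genes, 95 were called in some setting, in 115 of 3211 pairs of gene and alternative setting. In 0 pairs did the difference change sign while called. A pair that was not called could not count as a change, so this says nothing on most pairs. With 3 arrays a group, differences well under 1.5-fold are mostly out of reach. Larger ones did not pass here either: G0S2, at 3.04-fold, had an adjusted limma p of 0.223.

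As a replicate block, the shared replicate numbers gave 0 adjusted calls and 3151 genes, 1735 higher and 1416 lower, at an unadjusted p below 0.05. Whether the numbers pair the arrays cannot be settled from these values. Deviations of same-numbered arrays 1, 2 and 3 from their group means correlated at -0.019, 0.378 and 0.174. Arrays 2 and 3 labelled shMOF correlated best with the control of their own number, and shMOF array 1 with control array 3, at 0.29.

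List medians moved by more than the spread between arrays in 82 of 855 cases. Without both arrays they were 0.16 for centrosome, 0.03 for nuclear pore, -0.11 for S phase, -0.05 for immediate early, 0.0033 for unfolded protein, -0.08 for cytosolic and -0.10 for mitochondrial ribosomal protein, -0.14 for chemokine, -0.16 for glycolysis, -0.04 for autophagy, -0.02 for tRNA synthetase, -0.13 for keratin, -0.11 for gland, 0.01 for p53, -0.00014 for insulin-like growth factor, 0.02 for JAK-STAT, 0.05 for MHC class I, 0.03 for acetylation and 0.05 for methylation genes, and -0.15, 0.01, -0.11 and -0.09 for epithelial, stromal, immune and endothelial markers. Array weights gave 0.08 for MHC class I, 0.17 for Wnt, -0.08 for endothelial, -0.03 for junction, 0.06 for acetylation, 0.01 for insulin-like growth factor, -0.01 for JAK-STAT and -0.10 for p53 genes. The filter on dim genes gave 0.41 for antiviral effectors, 0.27 for Wnt, -0.14 for gland, -0.78 for epithelial-mesenchymal, 0.16 for JAK-STAT, -0.38 for keratin and 0.18 for receptor and co-regulator genes. Every named probe set gave -0.36 for MHC class I and -0.18 for JAK-STAT genes. Cancer drivers were at 0.02 with arrays shifted to 1 median and at -0.03 after quantile normalization.

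With 1 array left out, the medians ran from -0.15 to 0.01 for JAK-STAT, -0.07 to 0.10 for MHC class I, -0.32 to -0.17 for chemokine, -0.04 to 0.03 for methylation, -0.08 to 0.02 for acetylation, -0.11 to -0.01 for endothelial, -0.31 to -0.15 for immune, -0.16 to -0.04 for tRNA synthetase, -0.10 to -0.01 for hypoxia, 0.05 to 0.13 for Wnt, -0.03 to 0.03 for driver, -0.11 to -0.0042 for insulin-like growth factor, -0.19 to -0.09 for autophagy, -0.12 to -0.01 for p53, -0.29 to -0.16 for glycolysis, -0.22 to -0.14 for mitochondrial ribosomal protein and -0.12 to -0.05 for keratin genes.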

Other observations

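Metabolic and stress genes gave few values past an unadjusted limma p of 0.05 and mostly downward medians in the ERα(+) arrays. Of all genes, 10.2% were higher and 8.51% lower. Of 16 hypoxia-induced genes 3 were lower (18.8%), with a median of -0.02. They were EPAS1, the oxygen sensor EGLN3 (-0.53 ± 0.22, SE) and the lipase inhibitor ANGPTL4 (-0.54 ± 0.24). NDRG1, a further hypoxia gene, read 6.24, 6.67 and 6.83 in the controls and 5.56, 5.51 and 5.63 in the arrays labelled shMOF. Its groups lay apart, yet its difference of -1.01 ± 0.55 did not pass. Of 9 glycolysis genes the mutase PGAM1 alone was lower (-0.33 ± 0.12), or 11.1%, with a median of -0.25. Of 18 cholesterol genes the kinase PMVK alone was lower (-0.41 ± 0.15), or 5.56%, with a median of -0.29. Among 17 genes of the unfolded protein and ATF4 response 1 was higher (5.88%), with a median of -0.23. It was SEL1L of protein degradation at the endoplasmic reticulum (0.32 ± 0.15). Of 24 genes of respiratory complexes II to V 3 were lower (12.5%), among them UQCRC1 of complex III (-0.36 ± 0.14), with a median of -0.13. Cytosolic tRNA synthetases had 2 of 17 higher (11.8%), NARS1 (0.44 ± 0.13) and EPRS1 (0.37 ± 0.16), and a median of -0.08. Without both control array 3 and shMOF array 2, 1 hypoxia (6.25%), 1 glycolysis (11.1%) and 1 respiratory gene (4.17%) were lower. Of all genes, 2.28% were lower in that setting, and 0 of the cholesterol, unfolded protein and tRNA synthetase lists passed.

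In the lists of apoptosis, p53 targets and autophagy, 10% to 12.5% of genes were higher and 6.25% to 22.2% lower, where 10.2% and 8.51% of all genes were, and without both control array 3 and shMOF array 2, 0 genes of the 3 lists passed. Of 18 apoptosis genes 2 were higher and 4 lower, with a median of -0.05: APAF1, the scaffold of the apoptosome, was at 0.54 ± 0.18 and the pore former BAK1 at -0.56 ± 0.19. Of 16 p53 targets 2 were higher and 1 lower, with a median of -0.05, and RRM2B, a ribonucleotide reductase subunit, read 7.29, 7.62 and 6.86 in the controls and 7.95, 8.48 and 7.98 in the arrays labelled shMOF. In autophagy, 3 of 30 were higher and 4 lower, with a median of -0.13, and the paralogous lipid transfer proteins ATG2A and ATG2B lay on opposite sides, at -0.42 ± 0.14 and 0.77 ± 0.25. Nuclear pore genes had 3 of 24 higher (12.5%) and 0 lower, with a median of 0.12 and RANBP2 at 0.71 ± 0.26. Of 15 endometrial cancer drivers ARID5B alone was higher (0.69 ± 0.26), or 6.67%. Of 18 insulin-like growth factor genes 1 was higher (5.56%) and 2 lower (11.1%), with the chromatin protein HMGA1 at -0.57 ± 0.18. Of 36 histone and DNA methylation enzymes 8 were higher (22.2%) and 1 lower (2.78%), with a median of -0.02. Of 17 endometrial gland genes 2 were higher (11.8%) and 4 lower (23.5%), with a median of -0.26. Without the same 2 arrays 1 methylation enzyme (2.78%) and 1 gland gene (5.88%) were lower, against 2.28% of all genes. In that setting 0 of the nuclear pore, driver and insulin-like growth factor genes passed.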
